A study of Mus musculus with 8 samples.

Results

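Syndecans and glypicans are the main proteoglycans that carry heparan sulfate chains on the surface of mammalian cells. Their 10 mouse genes, 4 syndecans (Sdc1 to Sdc4) and 6 glypicans (Gpc1 to Gpc6), were chosen by symbol from the 24346 genes listed for each library, and all 10 were among the 18862 genes that were above 0 in at least 1 library and were tested. Adipose-derived stem cells (ADSCs) were isolated from the gonadal fat of wild-type male BALB/c mice of 12 weeks and kept as primary cultures, either by conventional 2D culture or embedded in Matrigel as a 3D organotypic culture. Total RNA was sequenced from 4 2D cultures (mice 2, 3, 4 and 5) and 4 3D cultures (mice 1, 4, 5 and 7), 1 library per mouse and culture, and mice 4 and 5 are thus in both groups. The medium and the passage of the sequenced cultures are not given in the sources used here, and the effects of the matrix and of any difference in medium cannot be told apart. The question addressed was how the culture format changes the RNA levels of these cell surface proteoglycans and of the genes that build, edit and release their chains.

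Heparan sulfate chains bind fibroblast growth factors, Wnt and Hedgehog proteins and matrix proteins, and present them to receptors. Syndecans span the membrane and bind PDZ proteins such as syntenin through their short cytoplasmic tails, while glypicans are held by a lipid (GPI) anchor and can be released by the enzyme Notum. Sdc1 is the typical syndecan of epithelia, Sdc2 that of mesenchymal cells, Sdc3 is best known from the nervous system and muscle, and Sdc4 is found widely and at focal adhesions.

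Values are FPKM (fragments scaled to transcript length and library size), quantile normalized over the genes tested, and each fold change is a difference of log2(normalized FPKM + 1) between 3D and 2D, which understates the change of genes near 0. The estimated depth was 16.43 M to 17.38 M fragments per 2D library and 14.5 M to 15.63 M per 3D library. Before the members are described, the libraries were checked against the labelled cell type, mesenchymal stem cells. Of 10 mesenchymal stromal markers 8 fell in 3D, and Col1a2, Col3a1, Pdgfrb, Dcn and Thy1 were at 3 estimated fragments or fewer in every 3D library, while Ly6a (Sca-1) rose. Of 10 epithelial markers 9 rose, with a summed level of 3.8 to 585 in 2D and 2493 to 2924 in 3D, and Epcam, Esrp1 and Grhl2 were at 3 fragments or fewer in every 2D library. The 2D libraries of mice 3 and 4 stood apart from the other 2D libraries, with a summed level of 877 and 2137 over 7 mesothelial markers against 27.5 and 28.6 in mice 2 and 5. The 3D libraries had 91.1 to 199.98, most of it Krt19, with Upk3b, Upk1b and Lrrn4 at no more than 0.104. Msln was at 0.506, 33.6, 5.62 and 5.98 in the 3D libraries of mice 1, 4, 5 and 7. It was at 0.388 and 0.286 in the 2D libraries of mice 2 and 5. Wt1 and Bnc1 reached 0.998 and 1.01 in 3D, both in mouse 1. Of the other marker lists, 1 of 5 leukocyte genes rose (Cd68), with sums of 1.52 to 4.57 in 2D and 6.25 to 42.3 in 3D and Ptprc at no more than 0.078, 0 of 5 endothelial genes passed, 1 of 3 tested adipocyte genes fell (Fabp4) while Adipoq and Lep were at 0 throughout, and 0 of 7 tested genes of epididymal secretion passed. The leukocyte gene Csf1r was at 0.486 to 1.44 in 2D and did not pass (limma, adjusted p = 0.129). In the 3D libraries of mice 1, 4, 5 and 7 it was at 0.264, 5.97, 7.65 and 3.4. Adgre1 and Itgam were at no more than 0.032 in 3D. The part of other cell types in the results on the members was not tested. In bulk RNA, fewer cells of a type and less RNA per cell cannot be told apart.

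Of the 10 genes, 5 fell in 3D and 0 rose at an adjusted p below 0.05. The 5 were Sdc2, Sdc3, Gpc1, Gpc4 and Gpc6, and for each of them all 4 3D libraries lay below all 4 2D libraries. Over all genes tested, 20.3% fell and 21.2% rose at the same threshold, and 20.9% had 3D libraries that all lay below the 2D libraries (21.6% above). These shares include many genes near 0. With only the 12577 genes averaging 1 FPKM or more fitted, 3461 fell and 3542 rose, a larger part, and 5 members fell and 0 rose. No member rose at an unadjusted p below 0.05 either. The median log2 fold change was -0.46 over the 10 members and 0.0012 over all genes tested. Without the 2D libraries of mice 3 and 4, which stood apart, 5 members fell and 1 rose (Sdc4), and without those of mice 2 and 5, 3 fell and 0 rose. These pairs were the high and the low Sdc4 libraries of 2D, so the Sdc4 call followed from the choice of libraries. For mice 4 and 5, which gave both cultures, each of the 5 genes was lower in 3D than in 2D within both animals. This follows from groups that do not overlap and adds no further support. With the mouse as a block, a fit that leaves 1 residual degree of freedom, no gene of the 18862 passed and the lowest adjusted p (limma) was 0.111, that of Sdc2, while 4 members (Sdc2, Sdc3, Gpc4 and Gpc6) and 27.7% of all genes had an unadjusted p below 0.05.

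**Figure D1:**
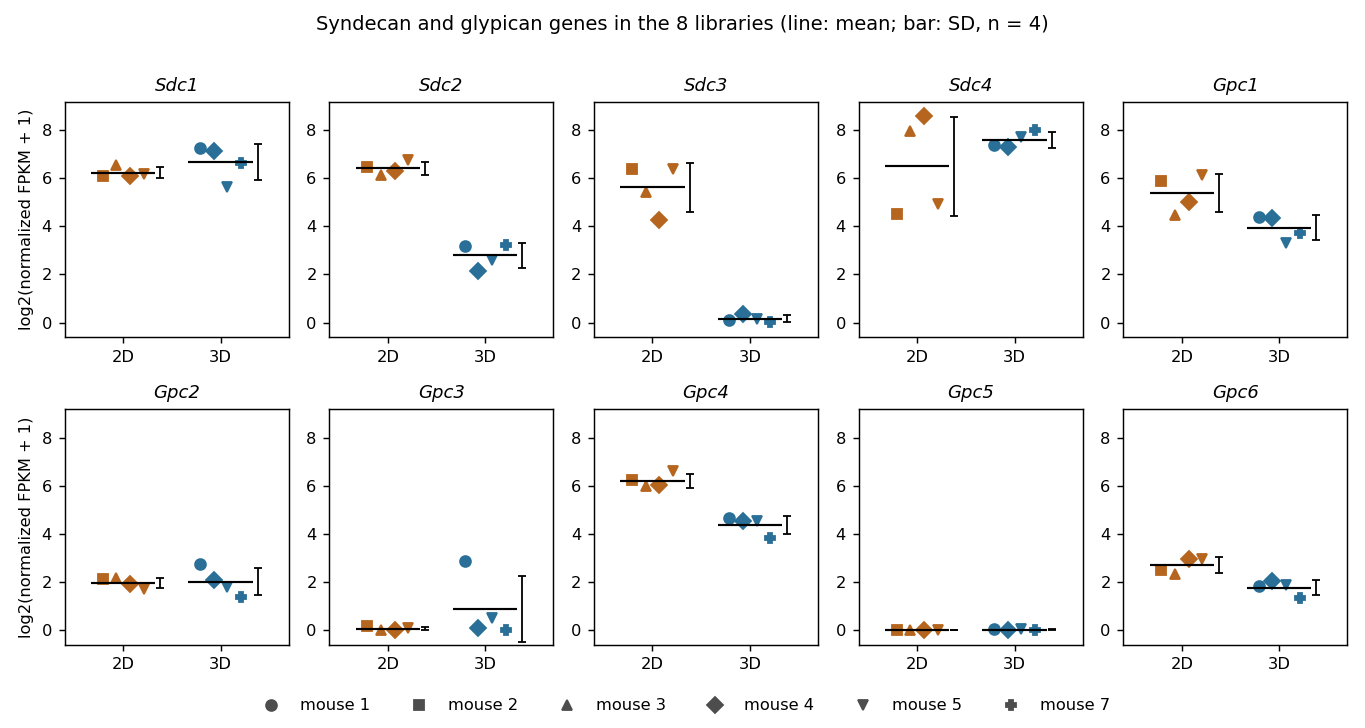
Level of each syndecan and glypican gene, as log2(normalized FPKM + 1), in the 4 2D libraries (brown) and the 4 3D libraries (blue). Symbols mark the mouse, lines the mean and bars the SD (n = 4). Sdc2, Sdc3, Gpc1, Gpc4 and Gpc6 do not overlap between the cultures, and Sdc4 splits into 2 high and 2 low libraries in 2D.

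Sdc3 showed the largest fall of the 10 genes. Its normalized FPKM was 83.1, 42.5, 18.2 and 83.9 in the 2D libraries of mice 2, 3, 4 and 5. In the 3D libraries of mice 1, 4, 5 and 7 it was 0.07, 0.291, 0.106 and 0.011, which are about 8, 26, 8 and 1 fragments. Every 3D library was near the limit of detection and far below every 2D library, and among the 2D libraries mouse 4 was lowest. The mean went from 56.9 ± 32.2 in 2D to 0.12 ± 0.121 in 3D (SD, n = 4), a 476-fold ratio of means that rests on few fragments and became 910-fold without the 3D library of mouse 4. The log2 fold change was -5.47 with an SE of 0.46 (limma, adjusted p = 7.91e-05).

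Sdc2, the syndecan of mesenchymal cells, fell 13.7-fold. Its normalized FPKM was 88.1, 69.1, 79.0 and 107.1 in 2D and 8.09, 3.44, 5.05 and 8.43 in 3D, in the same order of mice. The 2D libraries lay close together, and so did the 3D libraries. The means were 85.8 ± 16.2 and 6.25 ± 2.41 (SD, n = 4), and the log2 fold change was -3.63 with an SE of 0.26 (limma, adjusted p = 3.71e-05). Within mouse 4 the difference on this scale was -4.17 and within mouse 5 it was -4.16.

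Sdc1, the epithelial syndecan, did not pass the test. It was at 66.8, 94.1, 67.1 and 72.7 in 2D and at 154.7, 140.0, 48.8 and 98.4 in 3D. The 3D library of mouse 5 was below every 2D library and the other 3D libraries were above all of them, so the groups overlapped. The means were 75.2 ± 12.9 and 110.5 ± 47.5 (SD, n = 4), with a log2 fold change of 0.44, an SE of 0.35 and a 95% interval from -0.37 to 1.24 (limma, adjusted p = 0.355). Without the 3D library of mouse 5 the log2 fold change was 0.79 and passed (limma, adjusted p = 0.0202), and with the values as deposited or scaled to their upper quartiles it was -0.08 or -0.02. Mouse 4 had more Sdc1 in 3D, by 1.05 on the log2 scale, and mouse 5 had less, by a difference of -0.56.

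Sdc4 was the syndecan that varied most among 2D cultures. Its normalized FPKM was 22.2 and 29.4 in the 2D libraries of mice 2 and 5 and 247.5 and 382.2 in those of mice 3 and 4, a 17.2-fold range. In 3D it was 167.2, 155.6, 207.9 and 260.6 in mice 1, 4, 5 and 7. The 3D libraries thus lay between the low and the high pair of 2D libraries, apart from mouse 7, which was also above the 2D library of mouse 3. The high pair were the 2D libraries with mesothelial marker sums of 877 and 2137. Their epithelial marker sums were 145 and 585, against 6.33 and 3.8 in the low pair. Most of the epithelial sum in the high pair was Krt8 (26.8 and 261) and Krt18 (114 and 256). Epcam, Esrp1 and Grhl2 were at 0 in both of these libraries, and Cdh1 was at 0.379 and 0.716. The part of other cell types in the Sdc4 level was not tested. The log2 fold change was 1.11 with an SE of 0.93 and an interval from -1.05 to 3.26 (limma, adjusted p = 0.381). In 2 fits chosen after seeing the data it was 2.85 without the 2D libraries of mice 3 and 4 and -0.68 without those of mice 2 and 5. Each of these fits left out the high or the low pair of Sdc4 values. Their directions followed from that choice and add no support. The difference between 3D and 2D on the log2 scale was -1.29 within mouse 4 and 2.78 within mouse 5.

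**Figure D2:**
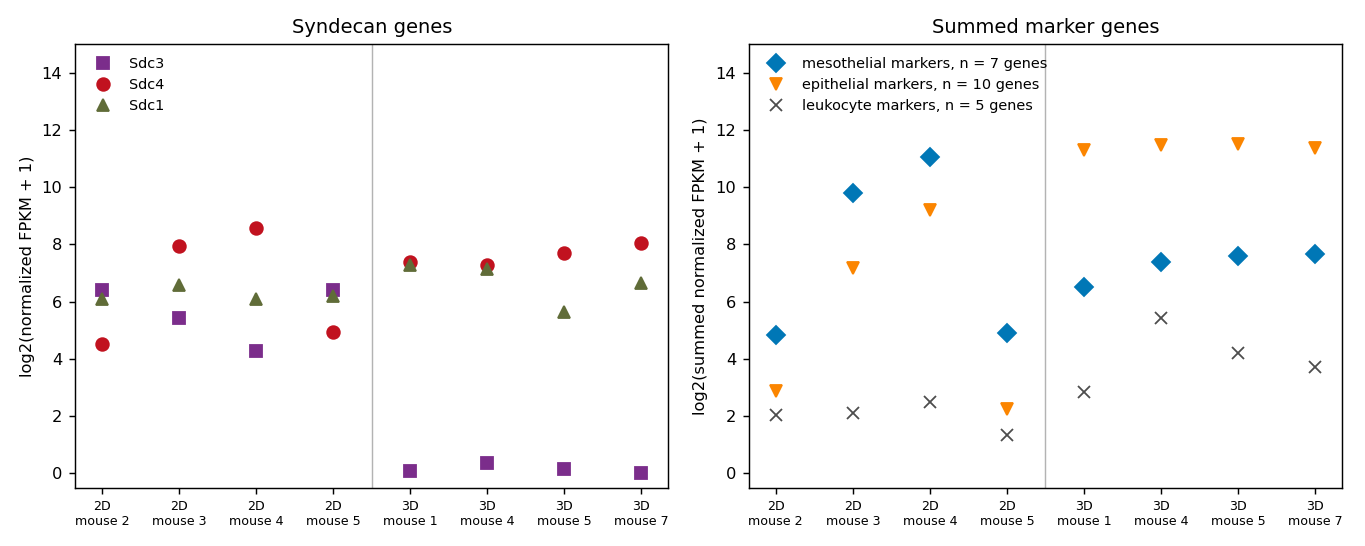
Left, log2(normalized FPKM + 1) of Sdc1, Sdc3 and Sdc4 in each library. Right, log2 of 1 plus the summed normalized FPKM of the mesothelial, epithelial and leukocyte markers in the same libraries. In 2D the libraries of mice 3 and 4 are high in Sdc4 and in mesothelial markers, and every 3D library is near 0 for Sdc3 and at 2493 or more for the epithelial sum.

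The bases before the start of the gene were read for the syndecans with the largest and with no passed difference, and for Gpc3, whose level is described further on. Of the 10 members, 7 matched a RefSeq promoter entry (build GRCm38.p6), and the bases printed end before the first base of the gene in both RefSeq and GENCODE. Capitals mark matches to the motifs searched. The Sdc1 stretch is chr12:8771146-8771322 and the Sdc3 stretch chr4:130792287-130792536, both on the plus strand, and the Gpc3 stretch is chrX:52613975-52614224 on the minus strand, all written 5′ to 3′.
Sdc1: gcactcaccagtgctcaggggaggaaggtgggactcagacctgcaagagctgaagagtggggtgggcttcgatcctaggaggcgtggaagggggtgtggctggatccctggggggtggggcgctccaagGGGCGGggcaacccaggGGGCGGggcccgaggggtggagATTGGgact
Sdc3: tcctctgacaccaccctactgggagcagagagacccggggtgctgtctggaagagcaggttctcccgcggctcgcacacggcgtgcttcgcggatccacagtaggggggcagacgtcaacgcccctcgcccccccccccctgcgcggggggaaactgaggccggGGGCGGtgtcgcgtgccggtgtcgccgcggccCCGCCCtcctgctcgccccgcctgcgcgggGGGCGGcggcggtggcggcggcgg
Gpc3: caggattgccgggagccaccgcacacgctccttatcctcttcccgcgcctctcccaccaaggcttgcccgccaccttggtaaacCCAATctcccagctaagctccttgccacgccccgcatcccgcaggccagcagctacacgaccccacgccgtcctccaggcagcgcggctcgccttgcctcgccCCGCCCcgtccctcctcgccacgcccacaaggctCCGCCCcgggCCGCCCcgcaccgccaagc
The motifs were the SP1 box with the letters GGGCGG, the CCAAT box, the TATA box with the letters TATAAA, the AP-1 site TGANTCA, an E-box with the letters CAGGTG, the TEAD site GGAATG and the grainyhead site AACNNGTT, each searched on both strands in the 250 bases before the RefSeq start, with matches allowed to overlap. The Sdc3 window held 3 SP1 boxes, 32 CpG dinucleotides and 76.4% G and C. The Sdc1 window held 3 SP1 boxes, 1 of them beyond the stretch printed, and a CCAAT box, with 10 CpG and 66% G and C. The Gpc3 window held 3 SP1 boxes and a CCAAT box, with 25 CpG and 71.6% G and C. Over 32851 windows the median was 52.4% G and C and 6 CpG, and 32.7% held an SP1 box and 33.8% a CCAAT box. All 7 windows of members held an SP1 box, whether the gene fell in 3D, as Sdc3 and Gpc4 did, or was at or near 0 in both cultures, as Gpc5 was. The Gpc4 and Sdc4 windows lie before the RefSeq start but wholly inside the gene as GENCODE places it. The Gpc4 window held the 1 TEAD match and the Gpc5 window the 1 TATA match among the members, against 12.6% and 12.4% of all windows. No AP-1, CAGGTG or grainyhead match was in these 7 windows, against 6.75%, 17.2% and 3.64% of all windows.

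Gpc4 was the most abundant glypican in both cultures. Its normalized FPKM was 74.4, 63.1, 64.5 and 98.4 in 2D and 24.2, 22.4, 22.3 and 13.3 in 3D. No 3D library came near the lowest 2D library, and mouse 7 was lowest in 3D. The means were 75.1 ± 16.4 and 20.6 ± 4.9 (SD, n = 4), a 3.65-fold fall with a log2 fold change of -1.83 and an SE of 0.22 (limma, adjusted p = 4.17e-04).

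Gpc1, the next glypican by level, fell by a smaller margin. It was at 59.1, 20.98, 31.4 and 69.8 in 2D and at 19.8, 19.4, 8.85 and 12.4 in 3D. The groups came close, with 20.98 as the lowest 2D value and 19.8 as the highest 3D value. The means were 45.3 ± 22.9 and 15.1 ± 5.39 (SD, n = 4), and the log2 fold change was -1.44 with an SE of 0.42 (limma, adjusted p = 0.0269). This call was lost with any 1 of 4 libraries left out. The adjusted p (limma) was 0.0697 without the 2D library of mouse 2, 0.0627 without that of mouse 5, 0.0681 without the 3D library of mouse 5 and 0.0662 without that of mouse 7.

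Gpc6 fell from a low level. Its normalized FPKM was 4.64, 4.1, 6.86 and 6.87 in 2D and 2.62, 3.08, 2.63 and 1.49 in 3D. All 3D libraries were below all 2D libraries. The means were 5.62 ± 1.46 and 2.45 ± 0.68 (SD, n = 4), with a log2 fold change of -0.93 and an SE of 0.23 (limma, adjusted p = 0.0128). The gene no longer passed with the values as deposited, at a log2 fold change of -0.69 (limma, adjusted p = 0.0583), or with upper quartile scaling, at -0.65 (adjusted p = 0.0726).

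Gpc2, Gpc3 and Gpc5 did not pass the test. In the annotation (GENCODE M21, build GRCm38), Gpc3 (chrX:52272426-52613950) and Gpc4 (chrX:52053021-52165252) lie on the minus strand of the X chromosome, and Gpc5 (chr14:115092215-116525179) and Gpc6 (chr14:116925315-117976544) on the plus strand of chromosome 14, so that each pair holds a gene that fell and a gene that did not pass. Gpc2 was at 3.36, 3.46, 2.74 and 2.28 in 2D and at 5.72, 3.31, 2.47 and 1.64 in 3D, with overlapping groups and a log2 fold change of 0.04 (interval -0.64 to 0.72, limma, adjusted p = 0.924). Gpc3, a glypican best known as a regulator of growth and of Hedgehog signalling, was at 0.131, 0, 0.014 and 0.048 in 2D, 3 fragments or fewer in each library. In 3D it was at 6.43, 0.054, 0.425 and 0, which is about 228 fragments in mouse 1, 15 in mouse 5 and 2 or fewer in the other two, so that 2 of the 4 3D libraries were above the 2D range. The log2 fold change of Gpc3 was 0.80 with an interval from -0.60 to 2.21 (limma, adjusted p = 0.331), and without the 3D library of mouse 1 it was 0.12 (adjusted p = 0.442). Gpc5 had a value of 0 in each 2D library and in the 3D libraries of mice 4 and 7, and had 2 fragments in mouse 1 and 1 in mouse 5, so that no difference was detectable at this depth.

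**Figure D3:**
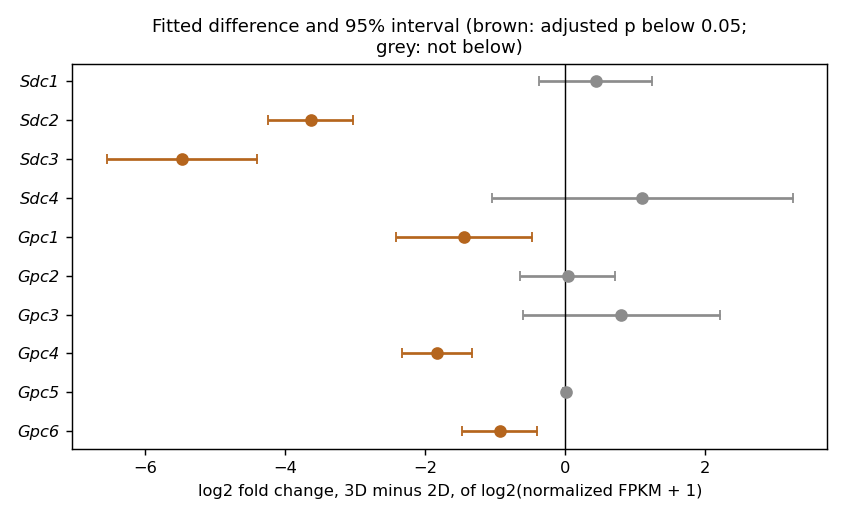
Fitted difference between 3D and 2D for each member, in units of log2(normalized FPKM + 1), with its 95% interval (limma, 4 libraries per culture). Intervals of the 5 genes with an adjusted p below 0.05, in brown, lie below 0, from -5.47 for Sdc3 to -0.93 for Gpc6, and the widest interval is that of Sdc4.

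FPKM values are divided by transcript length, so that levels may be ordered between genes. In 2D the order of mean normalized FPKM was Sdc4 (170.3), Sdc2 (85.8), Sdc1 (75.2), Gpc4 (75.1), Sdc3 (56.9) and Gpc1 (45.3), and the range of each of these 6 genes overlapped that of the next. Gpc6 (5.62) and Gpc2 (2.96) followed with ranges apart from each other and from Gpc1, and Gpc3 and Gpc5 were last. In 3D, Sdc4 (198) and Sdc1 (110.5) were the highest, and their ranges were only just apart, with 155.6 as the lowest Sdc4 value and 154.7 as the highest Sdc1 value. Gpc4 (20.6) and Gpc1 (15.1) came next and overlapped each other. Sdc2 held rank 2 of the 10 genes in 2D and rank 5 in 3D, where its range overlapped that of Gpc2.

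The summed level of the 4 syndecans was 260.1, 453, 546 and 293 in the 2D libraries of mice 2, 3, 4 and 5 and 330.1, 299, 262 and 368 in the 3D libraries of mice 1, 4, 5 and 7. These sums overlapped, but their makeup did not stay the same. Sdc2 made up 25.0% ± 11.8 of the syndecan FPKM in 2D and 1.96% ± 0.58 in 3D (SD, n = 4), and Sdc3 18.3% ± 14.1 and 0.04% ± 0.041. Sdc1 and Sdc4 together made up the rest of the 3D total, with 34.8% ± 14.3 and 63.2% ± 14.2, after 20.9% ± 6.12 and 35.8% ± 31.2 in 2D. In 2D the Sdc4 share was 8.52% and 10.02% in mice 2 and 5 and 54.6% and 69.9% in mice 3 and 4. These shares are a description and were not tested.

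The summed level of the 6 glypicans was lower in every 3D library, at 58.8, 48.2, 36.7 and 28.9 in mice 1, 4, 5 and 7, than in any 2D library, at 141.7, 91.6, 105.5 and 177.4 in mice 2, 3, 4 and 5. Gpc4 and Gpc1 were the leading glypicans throughout. Gpc4 had 59.5% ± 7.19 of the sum in 2D and 48.6% ± 8.47 in 3D, and Gpc1 had 33.4% ± 8.72 and 35.3% ± 8.4 (SD, n = 4). The share of Gpc2 was 2.51% ± 1.02 in 2D and 7.25% ± 1.74 in 3D, while its level did not pass the test and the sum was smaller. Gpc3 reached 10.9% of the glypican sum in the 3D library of mouse 1 and no more than 1.16% in any other library.

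**Figure D4:**
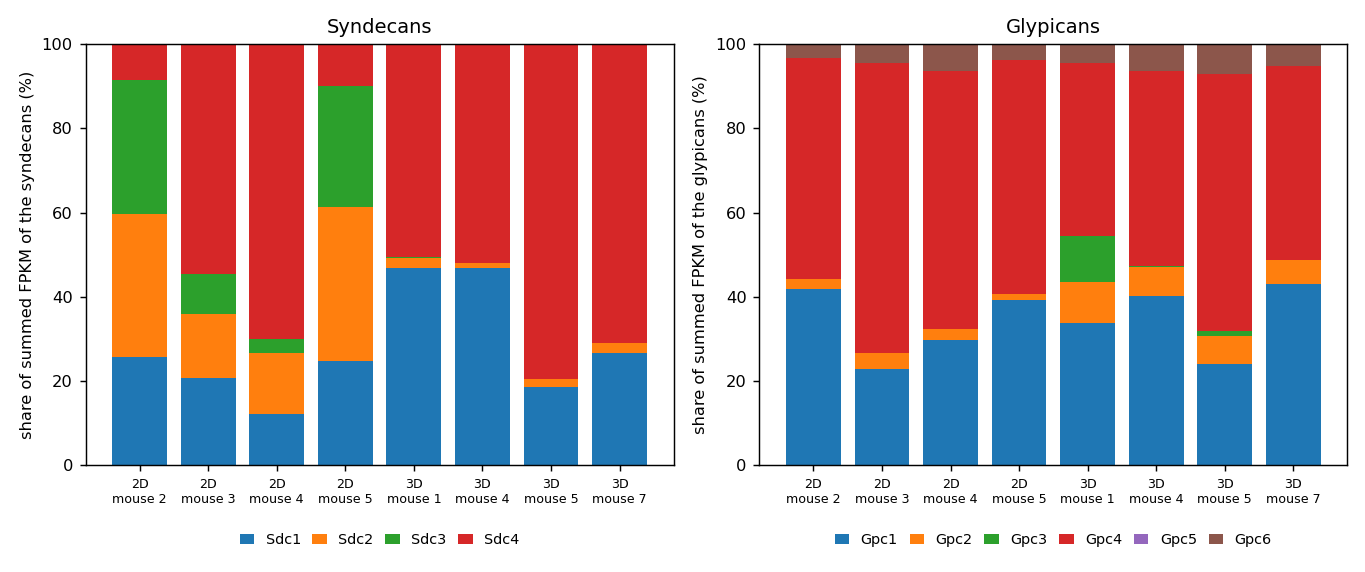
Share (%) of each gene in the summed normalized FPKM of the 4 syndecans (left) and of the 6 glypicans (right), as stacked bars for each of the 8 libraries. Sdc2 and Sdc3 shrink to under 3% of the syndecan sum in every 3D library, and Gpc4 and Gpc1 hold most of the glypican sum in both cultures.

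The genes that make, edit and release heparan sulfate were followed in 10 lists with 75 genes, of which 73 were tested. Of these, 18 rose, 21 fell and 34 did not pass, against 21.2% and 20.3% of all genes tested, and the median log2 fold change was 0.013 over the 73 genes. The counts of each list below stand beside these same shares of all genes. With each library left out in turn, 32 of the 39 calls were kept. Under the block none passed, and with only mice 4 and 5 fitted 11 rose and 11 fell, while without the 2D libraries of mice 3 and 4 the counts were 14 and 23. Within mice 4 and 5 all 39 genes moved in the direction of the call in both animals. For all but Mmp9 this follows from cultures that do not overlap, so it adds no further support. In mouse 4, Mmp9 was at 0.0046 in 2D and at 0 in 3D.

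**Figure D5:**
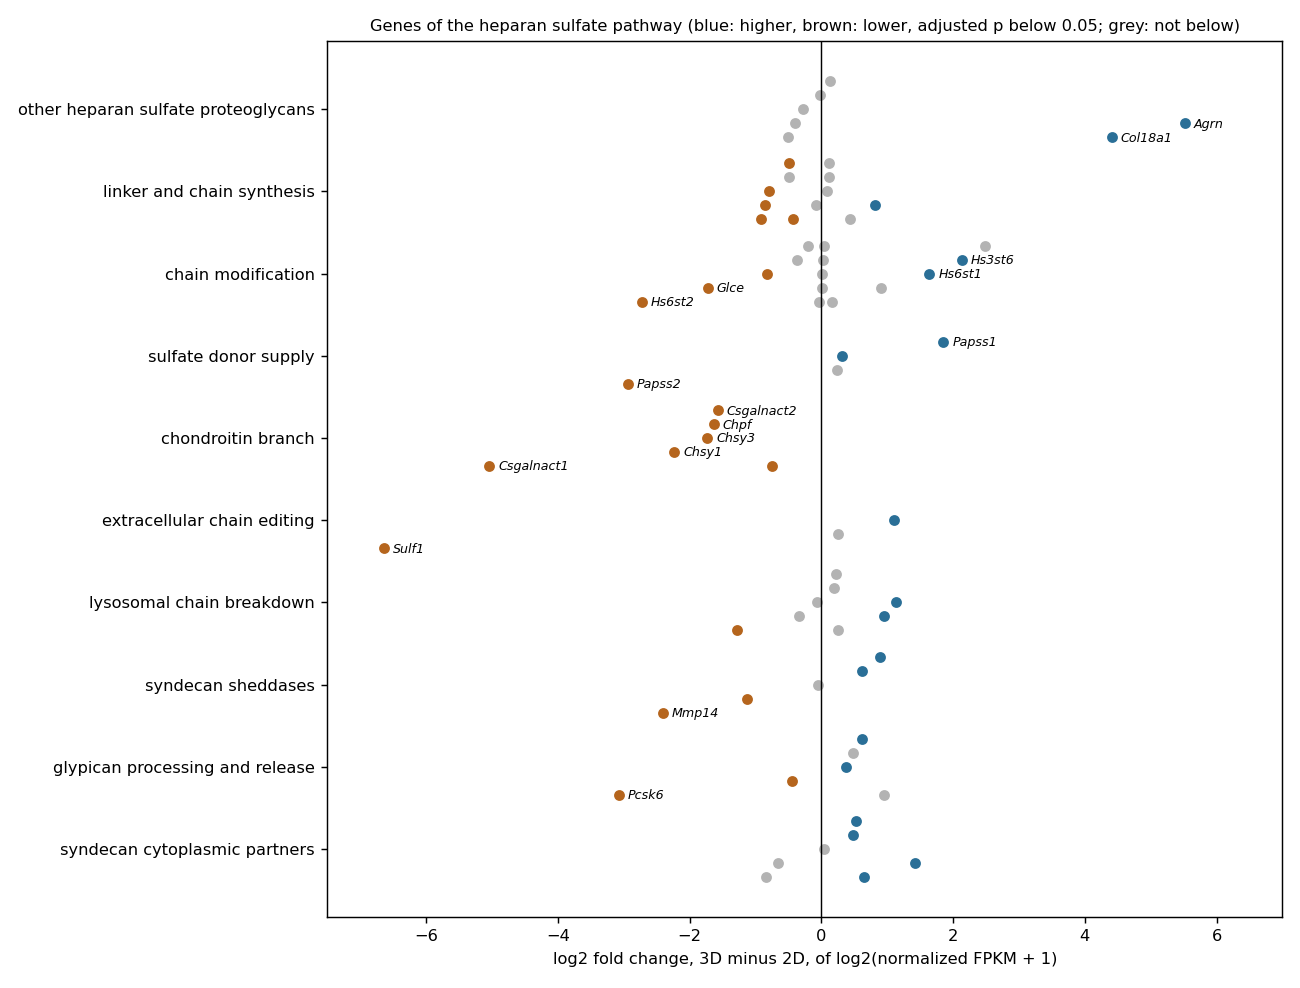
Log2 fold change between 3D and 2D, of log2(normalized FPKM + 1), for the 73 tested genes of the 10 lists, 1 point per gene, blue for genes that rose, brown for genes that fell and grey for those that did not pass (limma, adjusted p below 0.05). Names are given for called genes beyond 1.5 in either direction, and all 6 genes of the chondroitin branch lie to the left of 0.

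Among 7 other proteins that can carry heparan sulfate, 2 rose and 0 fell. Agrn, which encodes agrin, a secreted proteoglycan of basement membranes, was at 3.15, 10.8, 6.12 and 3.04 in 2D and at 161, 298, 365 and 349 in 3D. All 3D libraries were far above the 2D libraries, with a log2 fold change of 5.52 and an SE of 0.41 (limma, adjusted p = 4.07e-05). Col18a1, which encodes the basement membrane collagen XVIII, rose from 3.05 ± 0.42 to 86.3 ± 20.3 (SD, n = 4), a 28.3-fold ratio of means (limma, adjusted p = 1.76e-06). Both of these secreted carriers were above the summed glypican level of the same library in 3D. Cd44 and Nrp1, which carry heparan sulfate on part of their molecules, were at 110.6 and 47.3 in 2D and at 90.4 and 34.5 in 3D and did not pass (limma, adjusted p = 0.362 and 0.24). Cd44 passed with the values as deposited, at a log2 fold change of -0.84 (limma, adjusted p = 0.0314), and with upper quartile scaling (0.0364). Nrp1 passed without the 2D library of mouse 4, at -0.65 (limma, adjusted p = 0.00781), and without the 2D libraries of mice 3 and 4 (0.0186).

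Of the 12 genes for the linker and for chain growth, 1 rose and 5 fell. Xylt1, a xylosyltransferase that adds the first sugar to the core protein, fell from 1.04 ± 0.45 to 0.057 ± 0.023 (limma, adjusted p = 0.00304). Its paralog Xylt2 was at a higher level, 6.67 in 2D and 7.44 in 3D, and did not pass (limma, adjusted p = 0.658). B4galt7, which adds the next sugar, had a log2 fold change of -0.86 (limma, adjusted p = 0.0124). Extl2, at a log2 fold change of -0.42 (limma, adjusted p = 0.0383), lost its call in 9 of 18 alternatives. Among these were the values as deposited (limma, adjusted p = 0.127) and upper quartile scaling (0.205). The chain polymerase gene Ext1 had a log2 fold change of -0.79 and its partner Ext2 one of -0.08, and the Ext2 change did not pass (limma, adjusted p = 5.77e-04 and 0.538). Ext2 passed with the values as deposited, at a log2 fold change of -0.50 (limma, adjusted p = 0.0109), and with upper quartile scaling, at -0.45 (0.0136), so the contrast between Ext1 and Ext2 depended on the scaling. Fam20b, a kinase that phosphorylates the first sugar, rose from 25.8 ± 2.53 to 46.8 ± 8.63 (limma, adjusted p = 0.00255).

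Of 6 genes that start or extend chondroitin sulfate chains, which are built on the same linker, all 6 fell. Csgalnact1, an enzyme that starts chondroitin chains, was at 41.1, 19.4, 35.3 and 40.7 in 2D and at 0.08, 0.012, 0 and 0 in 3D. Its log2 fold change was -5.05 with an SE of 0.24 (limma, adjusted p = 4.53e-06). Its paralog Csgalnact2 fell less and stayed above 0 in every 3D library. It was at 14.4, 16.3, 24.5 and 18.8 in 2D and at 6.43, 4.95, 4.89 and 5.6 in 3D (limma, adjusted p = 2.79e-04). Chsy1, a chondroitin synthase, fell from 28.7 ± 15.7 to 4.93 ± 2.36 (limma, adjusted p = 0.00402). The median log2 fold change over the 6 genes was -1.68.

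Chain modification changed in both directions, with 2 of 15 tested genes higher and 3 lower. The 6-O-sulfotransferase genes went opposite ways. Hs6st1 was at 37.0, 20.9, 14.2 and 25.3 in 2D and at 70.5, 74.7, 73.3 and 77.2 in 3D, while Hs6st2 was at 63.6, 121.5, 84.3 and 67.4 in 2D and at 39.0, 6.08, 10.7 and 6.22 in 3D. Neither gene overlapped between the cultures, with log2 fold changes of 1.64 and -2.73 (limma, adjusted p = 0.00147 and 0.00566). The 3-O-sulfotransferase gene Hs3st6 had about 1 fragment or none in each 2D library. Its mean deposited FPKM in 3D was 27.3-fold the highest level that 3 fragments would give in a 2D library. Without the 3D library of mouse 5 it was 25.5-fold that level. Glce, the epimerase that makes iduronic acid, fell by 1.73 on the log2 scale (limma, adjusted p = 5.17e-04).

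The 2 synthase genes of the sulfate donor PAPS went opposite ways, with Papss1 the higher one in both cultures. Papss1 rose from 22.8 ± 2.78 to 87.2 ± 28.4, and its paralog Papss2 fell from 10.1 ± 3.52 to 0.391 ± 0.061 (SD, n = 4; limma, adjusted p = 2.88e-04 and 6.41e-05). Of the 4 genes in this list a further 1 rose, the transporter gene Slc35b2, with a log2 fold change of 0.31 (limma, adjusted p = 0.0228), a call that was lost in 7 of 18 alternatives. Among these were the values as deposited, with a log2 fold change of 0.079 (limma, adjusted p = 0.499), upper quartile scaling (0.235) and the fits without the 2D or the 3D library of mouse 4 (0.0542 and 0.0505).

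Among the genes that edit finished chains outside the cell, Sulf1, a sulfatase that removes 6-O-sulfate, was at 65.7, 139.8, 128.2 and 82.3 in 2D and was listed at 0 in all 4 3D libraries. Its mean deposited FPKM in 2D was 3274-fold the highest level that 3 fragments would give in a 3D library. Without the 2D library of mouse 3 it was 2999-fold that level. The fall of Sulf1 passed (limma, adjusted p = 1.06e-06). Its paralog Sulf2 was at 35.3 in 2D and 39.2 in 3D and did not pass (limma, adjusted p = 0.541). Hpse, the heparanase that cuts the chains, rose by 1.10 on the log2 scale (limma, adjusted p = 0.0185), a call lost without the 2D library of mouse 2 (adjusted p = 0.0508), with only mice 4 and 5 (0.0969) and without the 2D libraries of mice 2 and 5 (0.118). Among the lysosomal enzymes of chain breakdown, Naglu had a log2 fold change of 1.13 and rose, and Gusb, the beta-glucuronidase, had one of -1.28 and fell (limma, adjusted p = 0.00776 and 0.00232).

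Of 5 proteases known to shed syndecans, 2 rose and 2 fell. Mmp14, a membrane-bound metalloprotease, was at 181.3, 239.1, 214.8 and 303.5 in 2D and at 15.5, 81.6, 62.3 and 40.9 in 3D, with no overlap and a log2 fold change of -2.41 (limma, adjusted p = 0.00487). Adam17, a sheddase of many membrane proteins, rose from 14.8 ± 1.73 to 28.4 ± 2.49 (limma, adjusted p = 4.12e-04). Mmp7 had a value of 0 in each 2D library and reached 0.097 to 0.913 in 3D, and Mmp9 had a log2 fold change of -1.14 that passed (limma, adjusted p = 0.0397) but lost its call in 7 of the 8 fits with a library left out, all but that without the 2D library of mouse 4, with an adjusted p of up to 0.0887. With only mice 4 and 5 it was 0.411. The Mmp7 call was lost without the 2D libraries of mice 2 and 5 or of mice 3 and 4 (limma, adjusted p = 0.0879 and 0.0826).

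Glypicans are cut by proprotein convertases and released from their anchor by Notum and Gpld1, and of 6 such genes 2 rose and 2 fell. Pcsk6, a convertase, was at 4.35, 17.7, 13.1 and 4.16 in 2D and no higher than 0.207 in 3D (limma, log2 fold change -3.08, adjusted p = 0.00107). Furin, the convertase with the highest level, was at 29.9 in 2D and 40.8 in 3D and did not pass (limma, adjusted p = 0.138), though it did without the 2D libraries of mice 2 and 5 (0.0118). Notum had about 3 fragments or fewer in each 2D library and was at most 0.48 in 3D (limma, adjusted p = 0.0132). Its mean deposited FPKM in 3D was 4.77-fold the highest level that 3 fragments would give in a 2D library. Without the 3D library of mouse 5 it was 4.15-fold that level. Gpld1 and Pcsk7 had log2 fold changes of 0.61 and -0.45 (limma, adjusted p = 0.0409 and 0.0259). The Gpld1 call was kept without the 2D library of mouse 5 or the 3D library of mouse 4 and lost without any 1 of the other 6 libraries, and the Pcsk7 call was lost without the 2D library of mouse 2, 3 or 5 or the 3D library of mouse 1 or 7, with adjusted p of up to 0.092 and 0.0706. The Pcsk7 call was lost with upper quartile scaling as well (limma, adjusted p = 0.0719), and both calls were lost with only mice 4 and 5 (0.483 for Gpld1 and 0.416 for Pcsk7). The Notum call was lost without the 2D libraries of mice 2 and 5 or of mice 3 and 4 (limma, adjusted p = 0.0792 and 0.0619).

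Of 7 cytoplasmic partners of syndecans, 4 rose and 0 fell, where 21.2% of all genes tested rose and 20.3% fell. Sdcbp, which encodes syntenin, was at 54.5, 59.0, 63.3 and 47.6 in 2D and at 151.7, 149.7, 149.7 and 151.3 in 3D. The 3D libraries were nearly equal and all above the 2D libraries, with a log2 fold change of 1.42 and an SE of 0.09 (limma, adjusted p = 1.98e-05). Gipc1, a further PDZ protein that binds syndecan tails, rose from 39.1 ± 1.89 to 62.1 ± 5.03 (SD, n = 4; limma, adjusted p = 4.02e-04). The other calls, of Pdcd6ip and Cask, depended on the setting. Pdcd6ip was lost with the values as deposited (limma, adjusted p = 0.412), with upper quartile scaling (0.234) and with only mice 4 and 5 (0.067). Cask was lost in 5 of 18 alternatives, among them without the 2D library of mouse 2 or of mouse 4 (limma, adjusted p = 0.0596 and 0.0517). The rise of Sdcbp stood beside syndecan sums of 260.1 to 546 in 2D and 262 to 368 in 3D, which overlapped.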

How the data were processed

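Total RNA of 8 ADSC cultures, 4 in 2D and 4 in 3D, was sequenced by the authors as directional, paired-end libraries after removal of ribosomal RNA. The authors trimmed the reads, mapped them with TopHat (to mm10, per the submitters' processing notes) and computed FPKM per gene with Cufflinks, and the deposited values are these FPKM without read counts. The annotation is not given in the sources used here. The deposited values were not yet quantile normalized, the next step of the study, so this step was done with limma 3.58.1 in R 4.3.3 over the 18862 genes above 0 in at least 1 library. The other 5484 genes were left out.

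The values were converted to log2(FPKM + 1) and a linear model without covariates was fitted per gene over the 8 libraries using an intensity trend and empirical Bayes moderation (limma). P-values were adjusted over all genes tested (Benjamini-Hochberg) and called below 0.05, two-sided. They measure the spread between cultures of different mice. Groups came from the sample titles. The model was tested on simulated data.

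The members and the gene lists were chosen with earlier results of these data known, and no list is independent evidence. Named genes are all 10 members and, from each pathway list, the genes with the largest rises and falls among those called (at most 2 of each). One result under this rule is not reported here. Xylt2, Ext1, Ext2, Extl2, Csgalnact2, Sulf2, Furin, Cd44, Nrp1, Cask and Pdcd6ip were named in addition, after their values were seen. Family sums and shares were described without a test.

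Mice 4 and 5 gave both cultures, which pairs their libraries by animal. Deviations from the group means, taken for 12577 genes averaging 1 FPKM or more, had a correlation between the 2D and 3D library of -0.053 in mouse 4 and -0.11 in mouse 5. The value fitted with the mouse as a random effect was -0.044.

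The depth comes from the spacing of low FPKM values in 875 single-transcript genes of 3000 nt or longer (GENCODE M21), and 69.1% to 80.3% of these values lay within 0.15 of a whole number of fragments. Fragment numbers are therefore estimates, and limits of 3 fragments cover counting error only. Promoter sequences were taken from RefSeq (GRCm38.p6). Alternatives were other scalings, filters and pseudocounts, the mouse as a block or random effect, a fit of mice 4 and 5 alone, and the omission of each library in turn.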

Additional observations from a re-analysis of the deposited data

Results flagged for a closer look

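In the 3D cultures, 1 library stood far from the other three for 2 genes, by Dixon's criterion at the 95% level over 20 groups of 4 libraries (10 genes in 2 cultures). Chance alone flags about 1 in 20 groups. The normalized FPKM of Gpc3 in mouse 1 was 6.43 and at most 0.425 in the other 3D libraries. The normalized FPKM of Gpc4 in mouse 7 was 13.3, below the 22.3 to 24.2 of the other 3D libraries.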

How the results depend on the processing

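Of 19 alternatives, 2 were chosen after seeing the data, leaving out the 2D libraries of mice 3 and 4 or those of mice 2 and 5. These pairs were the high and the low Sdc4 libraries of 2D, so the Sdc4 results of these fits followed from the choice. The count of members that fell, 5, was 5 again in 10 alternatives and 4 in 6, namely the values as deposited and upper quartile scaling (Gpc6 lost) and the fits without the 2D library of mouse 2 or 5 or the 3D library of mouse 5 or 7 (Gpc1 lost). It was 0 with the mouse as a replicate block, 3 with only mice 4 and 5 and 3 without the 2D libraries of mice 2 and 5. The count of members that rose was 0 in 17 alternatives, and 1 without the 3D library of mouse 5 (Sdc1) and without the 2D libraries of mice 3 and 4 (Sdc4), so that it ranged from 0 to 1 with each library left out. Pathway genes that rose or fell, 18 and 21, numbered 0 and 0 with the replicate block and 11 and 11 with only mice 4 and 5. The block leaves 1 residual degree of freedom, and the cause of its lost calls was not tested beyond that.

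Sdc2, Sdc3 and Gpc4 passed in 18 of 19 alternatives, all but the block, Gpc6 in 14 and Gpc1 in 12. Gpc1 was also lost with only mice 4 and 5 (limma, adjusted p = 0.126) and without the 2D libraries of mice 2 and 5 (0.154), and Gpc6 in the same fits (0.057 and 0.0625). The direction reversed for genes that did not pass. The log2 fold change of Sdc1 was -0.081 as deposited and -0.025 with upper quartile scaling, that of Sdc4 was -0.68 without the 2D libraries of mice 2 and 5, and that of Gpc2 was -0.05 without the 2D library of mouse 5, -0.21 without the 3D library of mouse 1 (-0.21 to 0.24 with each library left out) and -0.019 without the 2D libraries of mice 2 and 5. The mean share of Sdc2 in 3D was 2.61% of the syndecan sum from deposited values. Gpc3 and Gpc5 had no value with genes of at least 1 FPKM. Depth limits Gpc3, Gpc5 and the 3D values of Sdc3, which rest on at most 26 fragments in any 3D library for Sdc3. The cause of each other change was not tested.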

Other observations

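Among the genes for 3-O-sulfation of heparan sulfate, which were looked at after their values were seen, Hs3st1 had a split in 2D like that of Sdc4. Its normalized FPKM was 0.725 and 0.564 in the 2D libraries of mice 2 and 5, 19.1 and 22.8 in those of mice 3 and 4, and 16.8 to 49.8 in 3D. Its log2 fold change of 2.48 did not pass (limma, adjusted p = 0.0836), and passed without the 2D library of mouse 3 or of mouse 4 and without both. Both libraries held its high 2D values, so these passes follow from leaving them out and add no support. Hs3st3b1 was at 40.5 in the 3D library of mouse 1, the library with the high Gpc3 value, and at 0.187 to 1.05 in the other 7 libraries, and Hs3st3a1 was at 7.38 in that library and at 1.43 or less elsewhere. The Sca-1 gene Ly6a was at 58.6 in the same library and at 1429 to 3117 in the other 3D libraries. The submitters' description of the 3D library of mouse 1 has another form than those of the other 3D libraries. Its group was taken from its title.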
